A study of Mus musculus with 23 samples.

Results

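Il10, Ebi3, Il6, Lta, Ltb, Tnf, Tgfb1 and Tgfb3, the genes of cytokines that B cells can make, were followed across mouse spleen B cells in which the transcription factor gene Irf8 had been targeted. They were taken by gene symbol, and 8 of 8 were present in both deposited tables, out of 11944 genes listed in at least 1 table. RNA sequencing covered 23 libraries in 8 groups. The KO cells held an Irf8 guide RNA, 1 of 2 designs, and were taken from the Thy1.1+ gate, while the WT cells held none and came from the Thy1.1- gate. Naive B cells, untreated and sorted as CD11b-, F4/80-, Thy1.2- and B220+, gave 3 KO libraries of guide 1 and the 3 WT libraries of that arm, and 3 KO libraries of guide 2 with the 3 WT libraries of that arm. Culture lasted 72 hours, with IL-2 at 20 ng/ml, IL-5 at 5 ng/ml and LPS, a Toll-like receptor ligand, at a labelled 20 mg/ml. From it, activated B cells (B220+, GL7+, CD138-) gave 3 KO libraries of guide 1 and 3 WT libraries, and plasmablasts (CD138+ with full or intermediate B220, called plasma cells in the cell type label) gave 3 KO libraries of guide 1 and 2 WT libraries. There was no control guide, all cells compared being with or without an Irf8 guide, and the mouse strain, age and way the guide was delivered are not given in the sources used here. The guide, the Thy1.1 sort and the loss of Irf8 therefore cannot be told apart in any KO comparison. Nothing in the labels says whether libraries came from separate animals, so p-values measure the spread between these libraries.

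B cells act on other immune cells through secreted cytokines as well as through antibody. IL-10 restrains macrophages, dendritic cells and T cells, and B cells that make it after Toll-like receptor ligands such as LPS are known as regulatory B cells. Plasmablasts and plasma cells are a known source of it in the mouse. EBI3 is a subunit shared by the heterodimers IL-27 and IL-35. The TGF-beta proteins are secreted as latent complexes that must be freed. IL-6 supports T cell help and antibody responses, and the lymphotoxins and TNF build and maintain the follicles and stroma of the spleen. Lymphotoxin alpha forms a soluble homotrimer and, with lymphotoxin beta, a membrane heterotrimer.

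Ltb, Tnf and Lta lie side by side in 11072 bases of chromosome 17 (35194507 to 35205578, GRCm38), and the other members lie apart. Il10 is on chromosome 1 (131019845 to 131024970), Il6 on chromosome 5 (30013114 to 30019975), Tgfb1 on chromosome 7 (25687002 to 25705077), Tgfb3 on chromosome 12 (86056743 to 86079041) and Ebi3 on chromosome 17 (55952623 to 55957022). For Il10 and Tgfb3 no RefSeq promoter window was at hand. For the other 6 of the 8 members, windows of GRCm38.p6 ran from 250 bases before to 50 bases after the start of the gene. They were searched on both strands for the interferon-stimulated response element GAAANNGAAA, the ETS and IRF composite element GGAANNGAAA, the AP-1 motif TGANTCA, the STAT motif TTCNNNGAA and the NF-kB consensus. The first pair, motifs of the family to which IRF8 belongs, had no match in any of the 6 windows, against 3.4% and 2.7% of all 32851 windows. With 6 windows and shares this low, the lack of a match does not set the members apart from other genes. The NF-kB consensus was matched in 4 of the 6 (8.5% of all windows), the AP-1 motif in 1 of 6 (7.8%) and the STAT motif in 2 of 6 (8.3%). A match is a stretch of letters and not a measured binding site. The 250 bases upstream of 3 members are shown on the strand of the gene, those of Ebi3 because it differed between KO and WT, and those of Il6 and Lta because they stand for the members that were lower in plasmablasts. The Lta window belongs to a start site that lies within the gene span given above, so that 227 of its 250 bases are inside that span, with no GENCODE exon in them. Capitals mark the NF-kB and AP-1 motifs in Ebi3 and Il6 and the STAT motifs in Lta.
Ebi3, chr17:55952373-55952622, plus strand: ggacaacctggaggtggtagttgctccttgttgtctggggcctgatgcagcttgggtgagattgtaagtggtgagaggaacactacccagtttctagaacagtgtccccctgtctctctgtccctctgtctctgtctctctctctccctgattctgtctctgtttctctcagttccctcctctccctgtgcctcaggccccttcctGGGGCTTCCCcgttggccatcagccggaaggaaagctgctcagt
Il6, chr5:30012864-30013113, plus strand: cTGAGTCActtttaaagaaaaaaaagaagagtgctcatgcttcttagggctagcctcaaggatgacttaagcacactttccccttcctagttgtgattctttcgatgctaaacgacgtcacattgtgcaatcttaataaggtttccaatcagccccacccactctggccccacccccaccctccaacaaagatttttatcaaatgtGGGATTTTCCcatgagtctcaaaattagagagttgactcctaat
Lta, chr17:35205352-35205601, minus strand: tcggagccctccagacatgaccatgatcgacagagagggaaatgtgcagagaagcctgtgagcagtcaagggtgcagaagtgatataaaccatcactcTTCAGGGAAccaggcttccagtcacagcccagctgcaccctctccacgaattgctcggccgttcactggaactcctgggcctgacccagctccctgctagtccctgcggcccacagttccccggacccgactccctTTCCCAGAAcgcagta

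Many cytokine mRNAs carry AU-rich elements in the 3' untranslated region, which bind decay factors such as tristetraprolin (Zfp36). In 1 GENCODE M21 transcript per gene, the pentamer ATTTA was found 8 times in Tnf, 6 times in Il10, 6 times in Il6, 3 times in Lta, once in Ebi3 and Tgfb1 and not in Ltb or Tgfb3. Thus 3 of 8 members held 5 or more pentamers, as did 19.1% of 10142 tested genes with such a region, whose median was 1. The fuller nonamer TTATTTATT was in Tnf (5 times, overlaps counted) and Lta (once), and in 7.0% of those genes. The first nonamers of both are shown with their flanks, nonamers in capitals.
Tnf, chr17:35199690-35199716, minus strand: ttgcacttaTTATTTATTATTTATTta
Lta, chr17:35203397-35203423, minus strand: aaagttaagTTATTTATTtatagagaa

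Values are RPKM, the authors' reads scaled to gene length and library depth. From the smallest steps between values, 14500000 to 22200000 reads were estimated in naive libraries and 4300000 to 26900000 in cultured ones, apart from 51000 in plasmablast KO m3. There, 1984 genes were listed at 0 and 1 read of a member was worth several RPKM. Activated libraries m3 went against their labels at the sort marker Thy1, where the library labelled KO held 0.093 RPKM and that labelled WT 25.7. At Irf8 they held 92.4 RPKM (labelled KO) and 59.998 RPKM (labelled WT). In the other activated libraries Irf8 averaged 68.6 ± 0.780 RPKM in KO and 101 ± 10.5 RPKM in WT (SD, n = 2 each). Irf8 itself was at 47.6 to 77.7 RPKM in the 6 naive KO libraries, against 79.8 to 98.0 RPKM in the 6 naive WT libraries. It was at 17.5 and 21.4 RPKM in plasmablast KO m1 and m2, against 24.6 and 17.6 RPKM in plasmablast WT m1 and m2, where the groups overlapped. Naive KO guide 1 library A listed 1405 genes at 0 and naive WT library A of that arm held 4.93 RPKM of Thy1. Results of cultured cells are therefore given with all libraries and without these 3 m3 libraries, and naive results also without both A libraries of guide 1. Summed B cell markers were at 2946 to 3766 RPKM in naive, 1765 to 2437 in activated and 648 to 1585 in plasmablast libraries, and summed plasma cell markers at 160 to 282, 1139 to 2905 and 2079 to 5275 RPKM. The defining T cell genes Cd3d, Cd3e, Cd3g, Cd4, Cd8a and Trac, the macrophage genes Cd14, Lyz2 and Fcgr1 and 6 of 6 neutrophil markers were in neither table.

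In naive WT cells the members ranked by RPKM, a level per length, as Ltb (251 ± 26.5), Lta (75.5 ± 14.8), Tgfb1 (58.9 ± 3.77), Ebi3 (16.3 ± 3.68), Tnf (9.14 ± 2.18), Tgfb3 (2.28 ± 0.751), Il10 (0.299 ± 0.379) and Il6 (0.0132 ± 0.0119; SD, n = 6 throughout). Ranges over the 6 libraries overlapped between Lta and Tgfb1, and between Il10 (21 reads or fewer) and Il6 (2 reads or fewer), and not between the other neighbours. The deposited lengths of Ltb (3482 bases) and Tnf (3046) exceed the span of the gene in RefSeq (1799 and 2641 bases), so the RPKM of these members may count a length that RefSeq does not give them. Naive and cultured cells came in separate tables, each fitted on its own, so the step from naive to cultured cells has no test. The levels of both are set side by side below and in the plots of values by library. In bulk RNA, fewer cells that transcribe a gene and less RNA of it per cell cannot be told apart.

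The comparison of naive KO and WT cells asked which cytokine genes differ with the Irf8 guides before stimulation. Of the members, Ebi3 was higher and Tgfb3 lower in KO cells over both guides, and the other 5 tested members were not called. Genes that reached 1 RPKM in 2 libraries were tested, which left out Il6, and a gene was called at an adjusted p under 0.05 from limma on log2(RPKM + 1), with Benjamini-Hochberg adjustment over all 10137 genes. Against these 2 calls among 7 tested members stand 191 calls, or 1.88% of all genes.

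Ebi3 was at 37.2, 22.5 and 24.9 RPKM in KO libraries A, B and C of guide 1, against 15.8, 21.6 and 12.8 RPKM in the WT libraries of that arm. With guide 2 it was at 34.5, 24.8 and 29.9 RPKM in KO, against 20.0, 13.2 and 14.3 RPKM in WT. Every KO library stood above every WT library, by 22.5 RPKM at the lowest in KO against 21.6 RPKM at the highest in WT, and 0.957% of all genes did the same. The log2 difference was 0.80 (SE 0.165, adjusted p = 0.0298 by limma), and it was 0.72 (SE 0.234) with guide 1 and 0.88 (SE 0.234) with guide 2, neither called alone (adjusted p = 0.173 and 0.537 by limma). Leaving out any 1 of 6 libraries (WT A or C of guide 1, and WT B or C or KO A or C of guide 2) ended the call, with an adjusted p of 0.0596 to 0.0983 in limma, while the difference stayed at 0.68 to 0.89 over all 18 alternatives. Without both A libraries of guide 1 it was 0.68 (adjusted p = 0.0333 by limma), in a fit that called 3.36% of genes over both guides, 1.79% for guide 1 and 0.259% for guide 2. Each value rests on 267 to 883 reads. The partner genes of EBI3, Il27 and Il12a, belong to the list of subunit partners and processing. Of that list 11 of 20 genes were in the naive table, and none of the 8 tested was called. Il12a, whose product forms IL-35 with EBI3, is described with the cultured cells.

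Tgfb3, one of 3 TGF-beta genes, was at 0, 0.756 and 0.015 RPKM in KO libraries A, B and C of guide 1, against 1.99, 1.69 and 2.38 RPKM in their WT libraries. With guide 2 it was at 1.59, 1.22 and 1.43 RPKM in KO, against 1.95, 1.95 and 3.75 RPKM in WT. Every KO library was below every WT library, as for 0.927% of all genes, and the guide 1 libraries were the lowest. The log2 difference over both guides was -0.92 (SE 0.197, adjusted p = 0.0341 by limma), with -1.31 (SE 0.279, adjusted p = 0.0471) for guide 1, among 1.11% of genes called there, and -0.52 (SE 0.279, adjusted p = 1) for guide 2, where 0 members and 3 genes in all (0.0296%) were called and 426 genes had an unadjusted p under 0.05. The call over both guides was lost without any 1 of 10 of the 12 libraries, all but KO libraries A and B of guide 1, with an adjusted p of 0.0619 to 0.102 in limma. Without both A libraries of guide 1 it was held at -0.85 (adjusted p = 0.0408 by limma), and the guide 1 call was lost (adjusted p = 0.0792). The difference between the guides was not called for any member (0 genes called in all by limma, 479 at an unadjusted p under 0.05).

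Il10 was near the floor of naive WT cells and scattered in KO cells. It was at 8.64, 0.476 and 5.03 RPKM in KO libraries A, B and C of guide 1 (164, 10 and 131 reads), against 0.745, 0 and 0.194 RPKM in WT. With guide 2 it was at 1.65, 1.41 and 0.335 RPKM in KO, against 0, 0.044 and 0.813 RPKM in WT. The groups overlapped in both arms, through KO library B of guide 1 and KO library C of guide 2. The log2 difference was 1.26 (SE 0.4, adjusted p = 0.174 by limma), and over 18 alternatives the adjusted p ran from 0.00638 to 0.392. It passed when KO library B of guide 1 was left out (1.65, adjusted p = 0.00638 by limma). Ahr, a ligand-activated transcription factor, was the gene whose log2 values were closest to those of Il10 over the 12 naive libraries (Pearson r of 0.954, a description that includes the KO and WT difference). Ahr averaged 11.5 ± 6.93 RPKM in KO and 2.53 ± 1.11 in WT of guide 1, and at 4.84 ± 2.26 RPKM in KO and 3.81 ± 2.34 in WT of guide 2 (SD, n = 3 each).

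**Figure D1:**
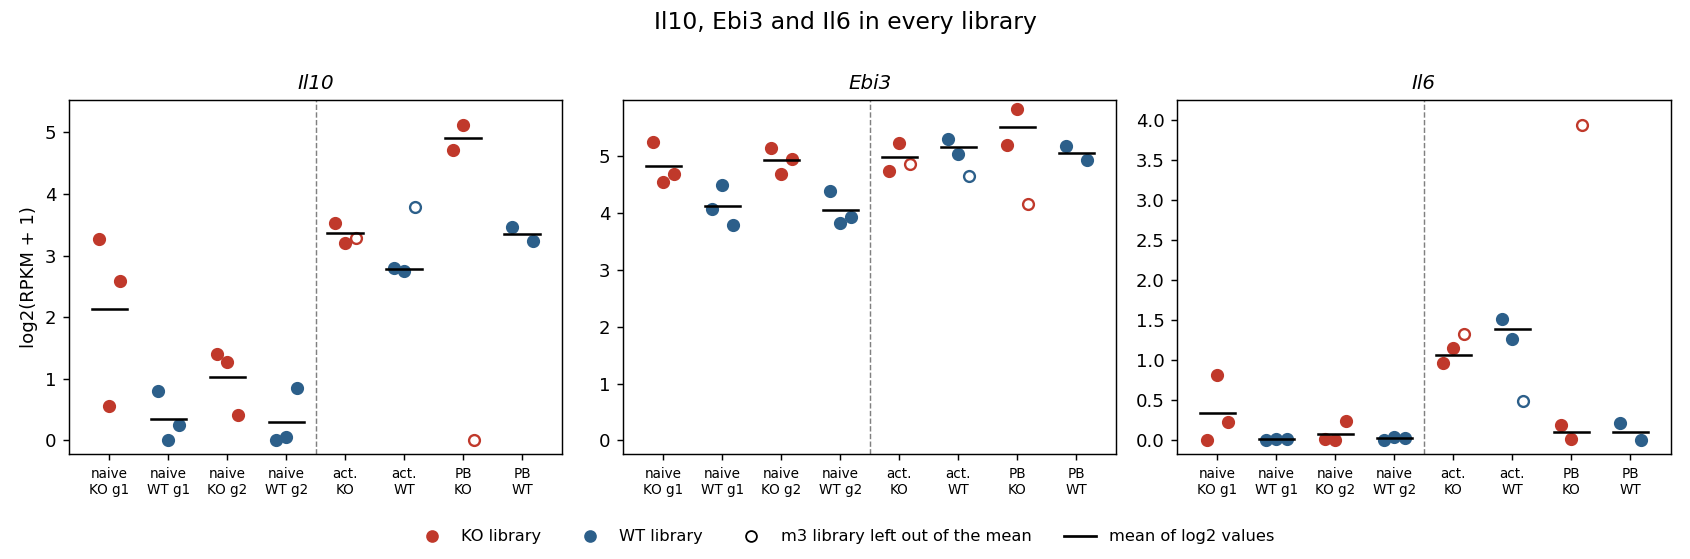
Level of Il10, Ebi3 and Il6 as log2(RPKM + 1) in each library, by group (g1 and g2, guide arms; act., activated; PB, plasmablast). Points are libraries, red KO and blue WT. Open points are the m3 libraries left out of the mean (black line), and the dashed line parts the naive and cultured tables, which were fitted separately. Ebi3 of all 6 naive KO libraries lies above that of all 6 WT libraries, and Il10 is highest in plasmablast KO libraries m1 and m2 (25.3 and 33.7 RPKM).

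The lymphotoxin and TNF genes were abundant in naive cells of both kinds. Lta was at 63.9, 77.8 and 93.3 RPKM in KO libraries A, B and C of guide 1, against 75.6, 66.6 and 51.5 RPKM in WT. With guide 2 it was at 141, 121 and 119 RPKM in KO, against 83.1, 93.9 and 82.0 RPKM in WT. The guide 2 groups did not overlap, with every KO library above every WT library as for 7.33% of all genes, and the guide 1 groups did. Its log2 difference of 0.41 (SE 0.114) was not called (adjusted p = 0.105 by limma), and passed without KO library A of guide 1 (0.48, adjusted p = 0.0171) or without both A libraries (0.54, adjusted p = 0.0107), within an adjusted p of 0.0107 to 0.265 over 18 alternatives. Ltb averaged 222 ± 25.8 RPKM in KO and 251 ± 26.5 RPKM in WT (SD, n = 6 each), and its log2 difference of -0.18 (SE 0.0822) was not called (adjusted p = 0.394 by limma). Tnf averaged 11.3 ± 3.04 RPKM in KO and 9.14 ± 2.18 RPKM in WT, a log2 difference of 0.27 (SE 0.144, adjusted p = 0.457 by limma). Tgfb1 averaged 49.4 ± 11.2 RPKM in KO and 58.9 ± 3.77 RPKM in WT, a log2 difference of -0.28 (SE 0.128, adjusted p = 0.394 by limma). Neither was called. For Ltb and Tgfb1 every KO library of guide 1 lay below every WT library, as did 10% of all genes, and the guide 2 groups overlapped. Ltb was at 203.9, 210.2 and 197.1 RPKM in those KO libraries, against 267.8, 290.3 and 230.2 RPKM in the WT ones. Il6 was at most 0.763 RPKM in KO (50 reads, library B of guide 1) and 0.028 RPKM in WT, and KO libraries A of guide 1 and B of guide 2 held none.

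**Figure D2:**
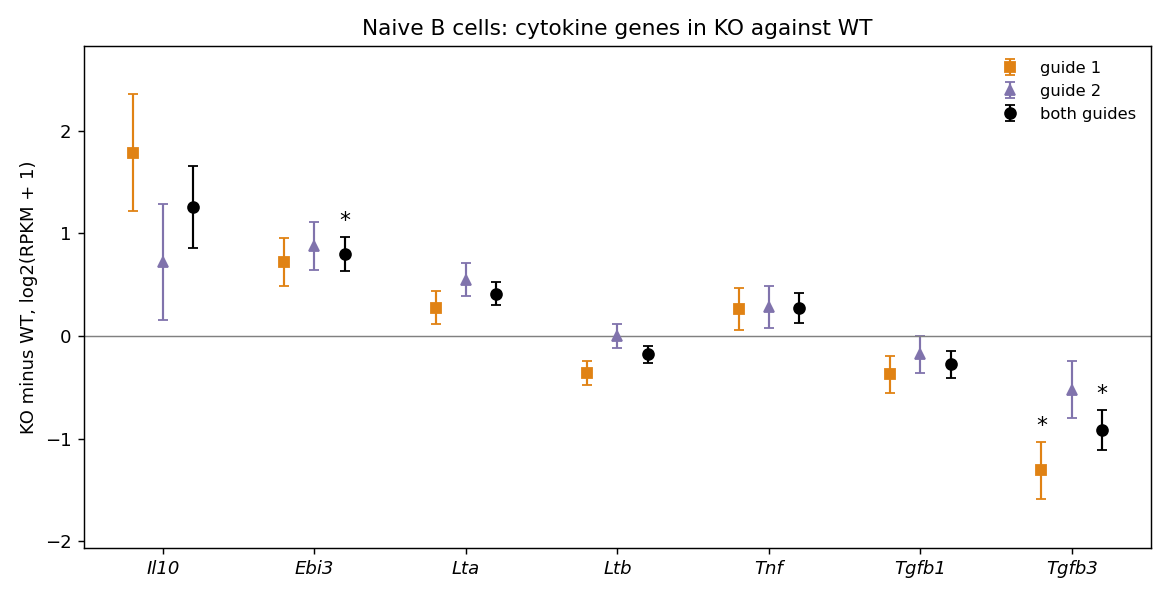
Difference in log2(RPKM + 1) of naive KO minus WT for the 7 tested members, by guide and over both guides; bars are standard errors from limma and stars mark an adjusted p under 0.05 over all genes. Ebi3 (0.80) and Tgfb3 (-0.92) are marked over both guides and Tgfb3 (-1.31) also for guide 1.

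Around the members, calls between naive KO and WT cells were found among signalling genes (1 of 27), regulators of transcription (2 of 20) and surface genes (3 of 13), against 1.88% of all genes. None of 8 tested genes of subunit partners and processing, 10 receptors, 12 mRNA decay factors and 10 other cytokines and chemokines was called, and their median log2 differences of -0.05, -0.17, -0.05 and 0.00 stand beside -0.02 for all genes. Of 27 signalling genes Traf1, an adaptor of TNF receptors, rose, to 23.0 ± 6.12 RPKM in KO against 10.2 ± 4.51 RPKM in WT (SD, n = 6 each; log2 difference 1.18, adjusted p = 0.0147 by limma). Of 20 regulators of cytokine transcription, Nfatc1, which carries calcium signals of the B cell receptor, rose (0.61, adjusted p = 0.0266) and Bach2, a repressor of plasma cell fate, fell (-1.26, adjusted p = 0.00561 by limma), to 6.93 ± 2.46 RPKM in KO against 17.5 ± 3.54 RPKM in WT (SD, n = 6 each). Of 13 surface genes used to describe regulatory B cells, Cr2 (CD21) and Cd274 (PD-L1) rose and Fcer2a (CD23) fell, and the median log2 difference was 0.82, with 11 of 13 above 0. Cd274 was at 53.1 ± 14.1 RPKM in KO and 27.4 ± 4.88 RPKM in WT (SD, n = 6 each; 0.91, adjusted p = 0.00549 by limma). Among markers of other cells and stages, the plasma cell marker Sdc1 (CD138) was lower in KO, at 0.399 ± 0.465 RPKM in KO and 2.85 ± 0.845 RPKM in WT (SD, n = 6 each; -1.49, adjusted p = 0.00313 by limma), and no other of 7 tested plasma cell markers was called. The 2 listed T cell markers summed to 63.1 to 94.1 RPKM in KO and 86.0 to 117.5 RPKM in WT, with Cd2 lower in KO (-0.66, adjusted p = 0.00775 by limma). The natural killer cell marker Prf1 was higher in KO (1.26, adjusted p = 0.00775 by limma). It was the only 1 of 5 tested natural killer cell markers above 0, and the median log2 difference of that list was -0.63. High CD21 with low CD23 is also the textbook phenotype of marginal zone B cells, and the part of these markers in the differences of the members was not tested.

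In cultured cells more members differed between stages than between KO and WT. Lta, Ltb, Tnf, Tgfb1 and Il6 were lower in plasmablasts than in activated B cells of both genotypes and Il10 was higher, once the 3 m3 libraries were left out. With all 11 libraries, 2 of 8 members were called in KO plasmablasts against KO activated cells (Ltb and Tnf, with 3.44% of all 9986 genes called) and 0 of 8 in WT (1.76%; for the members the smallest limma adjusted p was 0.0841, for Tnf). Without the m3 libraries 6 of 8 members were called in KO cells, where 33.6% of 9861 genes were, and 7 of 8 in WT cells, where 46.3% were. The medians over the 8 members were -0.90 in KO and -1.27 in WT, against -0.10 and -0.16 over all genes on the log2 scale. Markers moved with the stage too. Without the m3 libraries, 7 of 8 plasma cell markers were higher and 7 of 8 B cell markers lower in plasmablasts of both genotypes, and the listed T cell markers Cd2 and Lck, the natural killer cell marker Prf1 and the endothelial marker Pecam1 were lower. Of the macrophage list, 3 of 10 genes are in the cultured table, with a sum of 22.4 to 61.3 RPKM in plasmablasts and 10.8 to 25.9 RPKM in activated cells. Of these, Ly6c2 was higher and Itgam lower in both genotypes, Cd68 was lower in KO, and the median differences were -0.50 in KO and -0.20 in WT. Their part in the member differences was not tested. Leaving out plasmablast KO library m3 alone gave 6 calls in each genotype (30.7% of 9883 genes in KO and 33.4% in WT).

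Lta had 0.756 and 0.340 RPKM in KO plasmablasts m1 and m2, against 3.44 and 5.05 RPKM in KO activated cells m1 and m2. It had 0.403 and 0.167 RPKM in WT plasmablasts, against 7.435 and 5.57 RPKM in WT activated cells. The plasmablast values rest on 20 reads or fewer. Activated libraries m3 held 5.74 RPKM in the one labelled KO and 3.42 in the one labelled WT, and plasmablast KO m3 held 14.1 RPKM, which is 1 read. Plasmablasts were below activated cells in every library but that one. In WT, 36.8% of all genes were lower in every plasmablast library than in every activated one. Without the m3 libraries the log2 difference was -1.76 in KO (SE 0.209, adjusted p = 4.35e-05) and -2.54 in WT (SE 0.209, adjusted p = 1.15e-06 by limma). With all libraries it was -0.78 in KO (adjusted p = 0.524) and -2.29 in WT (adjusted p = 0.258 by limma). Naive cells held 51.5 to 141 RPKM of Lta in their own table.

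Ltb, its membrane partner, had the highest level of the members in activated cells, while Ebi3 stood above it in 4 of 4 plasmablast libraries other than m3 at the deposited lengths. At the shorter RefSeq span Ltb would be above Ebi3 in the same 4 libraries. Ltb was at 20.3 and 33.4 RPKM in KO plasmablasts, against 102.0 and 114 RPKM in KO activated cells. It was at 30.4 and 25.7 RPKM in WT plasmablasts, against 112 and 111 RPKM in WT activated cells. The log2 difference was -2.01 in KO and -1.96 in WT without the m3 libraries (SE 0.174 each, adjusted p = 3.72e-06 and 2.14e-06 by limma). With all libraries it was -2.59 in KO (SE 0.49, adjusted p = 0.0254), a call lost in 7 of 18 alternatives, and -1.89 in WT (adjusted p = 0.144 by limma). The call in KO was lost when activated KO m1, m2 or m3, plasmablast WT m1 or m2 or activated WT m2 was left out alone, with an adjusted p of 0.0553 to 0.113.

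Tnf, the neighbour of both, had 0.257 and 0.262 RPKM in KO plasmablasts (15 and 17 reads), against 1.96 and 1.71 RPKM in KO activated cells. It had 0.146 and 0 RPKM in WT plasmablasts, against 2.98 and 2.55 RPKM in WT activated cells. No plasmablast library reached an activated one, and every plasmablast library was below every activated one for 22.8% of all genes in KO and 36.8% in WT. Activated m3 was at 2.64 RPKM in the library labelled KO and at 0.777 in the library labelled WT. The log2 difference was -1.17 in KO (SE 0.159, adjusted p = 0.000128) and -1.81 in WT (SE 0.159, adjusted p = 1.94e-06 by limma) without the m3 libraries. With all libraries it was -1.40 in KO (SE 0.319, adjusted p = 0.0465), a call that leaving out any 1 of 9 of the 11 libraries ended (adjusted p = 0.0657 to 0.187 by limma). Only plasmablast KO m3 and activated WT m3 could be left out singly with the call held.

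Tgfb1, which encodes the TGF-beta best known for restraining lymphocytes, was at 14.1 and 17.8 RPKM in KO plasmablasts, against 26.7 and 31.9 RPKM in KO activated cells. It was at 15.8 and 13.4 RPKM in WT plasmablasts, against 39.984 and 33.0 RPKM in WT activated cells. Every plasmablast library was below every activated one of its genotype, as for 22.8% of all genes in KO and 36.8% in WT. Without the m3 libraries the log2 differences of Tgfb1 were -0.84 in KO (SE 0.144, adjusted p = 0.000706) and -1.26 in WT (SE 0.144, adjusted p = 1.68e-05 by limma). Plasmablast KO m3 held no read of it, and with all libraries neither difference was called (adjusted p = 0.201 in KO and 0.784 in WT by limma). Il6 had 0.141 and 0.012 RPKM in KO plasmablasts (11 reads and 1 read), against 0.953 and 1.23 RPKM in KO activated cells. It had 0.164 and 0 RPKM in WT plasmablasts, against 1.85 and 1.42 RPKM in WT activated cells. It was low throughout, and its log2 differences were -0.96 in KO (SE 0.169, adjusted p = 0.000886) and -1.28 in WT (SE 0.169, adjusted p = 5.41e-05 by limma) without the m3 libraries. In plasmablast KO m3 its 14.3 RPKM were 3 reads, and with that library in, the KO difference turned to 0.23 (adjusted p = 0.878 by limma).

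Tgfb3 was called higher in WT plasmablasts than in WT activated cells without the m3 libraries. With all libraries the WT difference of 0.75 was not called (SE 0.776, adjusted p = 0.819 by limma). It was at 0.988 and 1.67 RPKM in KO plasmablasts, against 1.14 and 0.607 RPKM in KO activated cells. It was at 1.93 and 0.957 RPKM in WT plasmablasts (176 and 14 reads), against 0.360 and 0.282 RPKM in WT activated cells (30 and 16 reads). The WT groups did not overlap, the KO groups did. The share of all genes that were higher in this way is not given here. Without the m3 libraries the WT difference of 0.86 was called (SE 0.222, adjusted p = 0.00679) and the KO one of 0.31 was not (SE 0.222, adjusted p = 0.308 by limma). The KO minus WT difference of these, -0.55, was not called (SE 0.315, adjusted p = 0.779 by limma). Ebi3 stood at 35.5 and 55.7 RPKM in KO plasmablasts, against 25.7 and 36.7 RPKM in KO activated cells. Ebi3 was at 35.2 and 29.7 RPKM in WT plasmablasts, against 38.5 and 31.8 RPKM in WT activated cells. It was the member not called between stages in either genotype, with differences of 0.52 (SE 0.199, adjusted p = 0.0605) in KO and -0.11 (SE 0.199, adjusted p = 0.676 by limma) in WT.

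**Figure D3:**
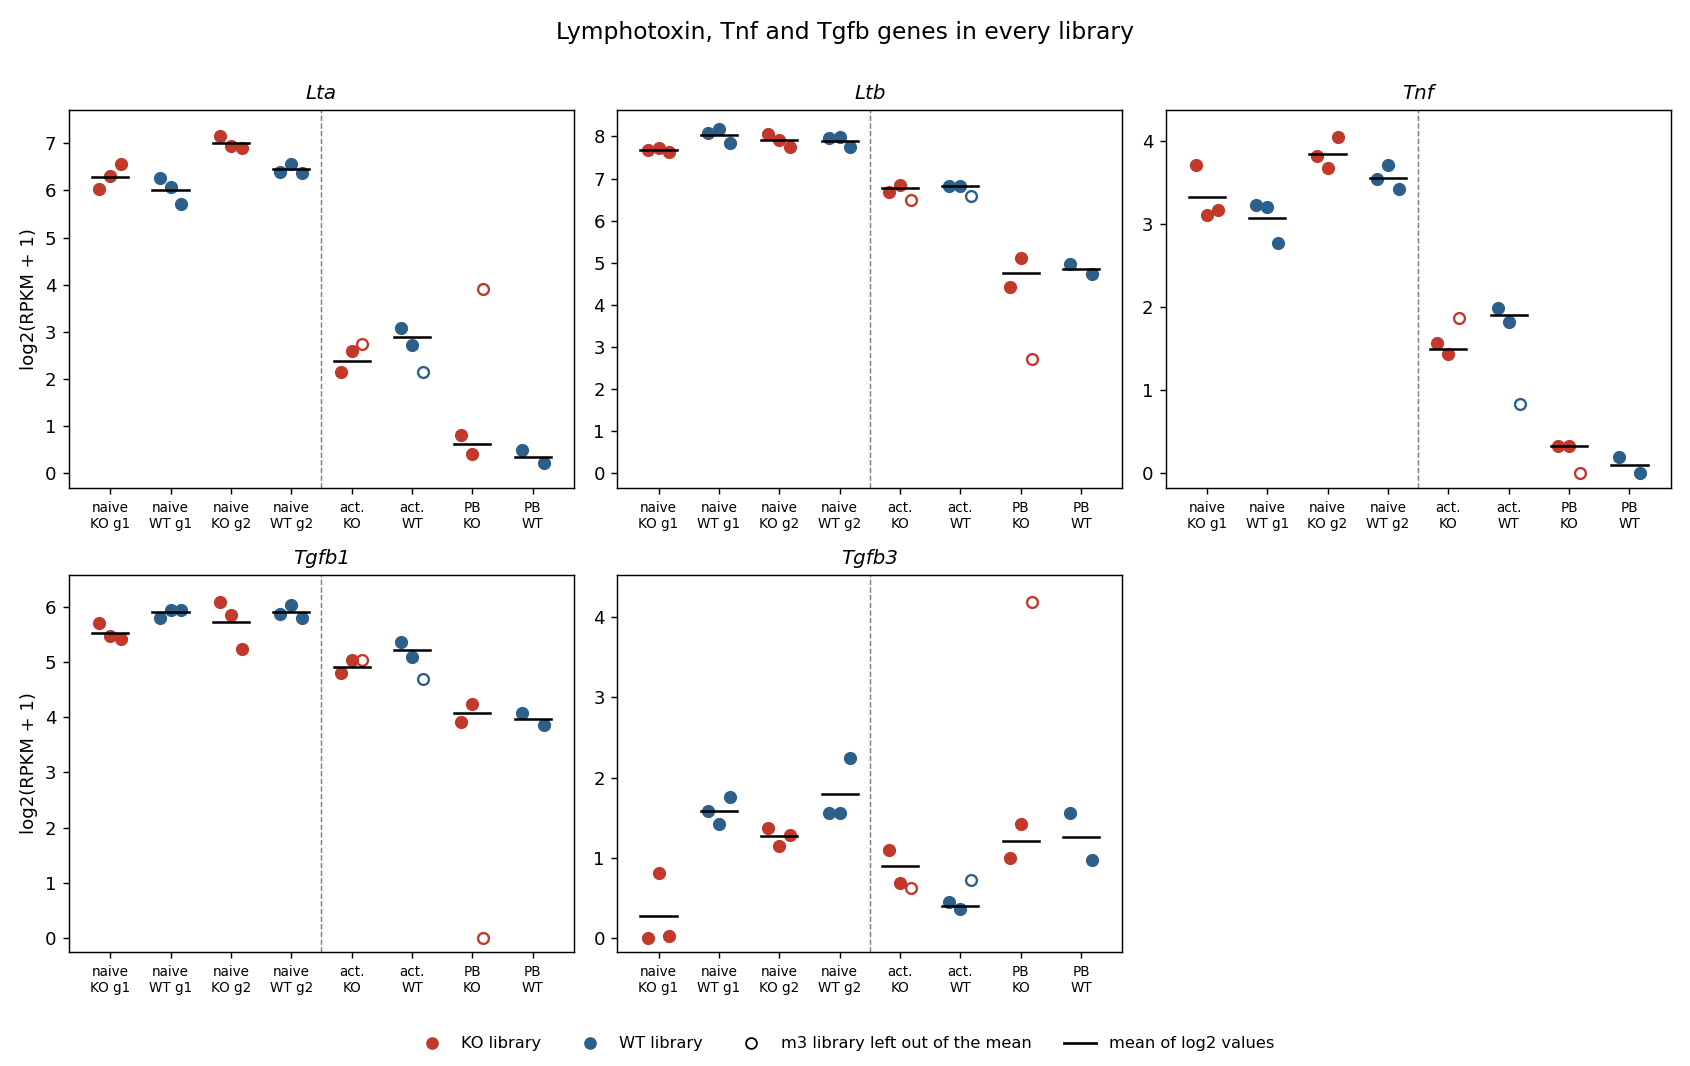
Level of Lta, Ltb, Tnf, Tgfb1 and Tgfb3 as log2(RPKM + 1) in each library, by group, drawn as in the plot of Il10, Ebi3 and Il6; open points are the m3 libraries left out of the mean. Lta, Ltb, Tnf and Tgfb1 are lower in plasmablast libraries m1 and m2 than in every activated library, and plasmablast KO m3 is out of range for most members (14.1 RPKM of Lta from 1 read, 0 of Tgfb1).

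Without the m3 libraries, Il10 had the largest log2 difference of the members between KO and WT plasmablasts. It was at 25.3 and 33.7 RPKM in KO plasmablasts m1 and m2 (635 and 939 reads), against 10.047 and 8.48 RPKM in WT plasmablasts m1 and m2 (354 and 48 reads), and plasmablast KO m3 held no read. Activated cells held 10.6 and 8.26 RPKM in KO m1 and m2, against 5.99 and 5.74 RPKM in WT m1 and m2. At m3, the activated library labelled KO had 8.78 RPKM and the one labelled WT 12.8. Both KO groups lay above their WT groups without the m3 libraries, by a ratio of means of 3.19 in plasmablasts and 1.61 in activated cells. In plasmablasts the KO libraries of Ebi3 and Tnf also lay above the WT ones. In activated cells those of Tgfb3 did, and those of Il6, Lta, Tgfb1 and Tnf lay below. The share of all genes that separate so with 2 libraries a group is not given here. By the ratio of means Tnf, at 17 reads or fewer, was above Il10 in plasmablasts (3.55). In activated cells without m3, 8 of 8 plasma cell markers were also higher in KO than in WT (median log2 difference 0.32, against -0.007 for all genes). Of these, Tnfrsf17 (BCMA) was called, at 1.68 ± 0.162 RPKM in KO and 0.234 ± 0.0205 RPKM in WT (SD, n = 2 each; 1.12, adjusted p = 0.0235 by limma). In plasmablasts without m3, 4 of 8 were above 0 (median 0.01) and none was called. With all libraries 7 of 8 were above 0 in activated cells (median 0.07) and 0 of 8 in plasmablasts (median -0.54), none called. The part of these markers in the Il10 difference was not tested.

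Without the 3 m3 libraries Il10 was called in KO against WT plasmablasts, with a log2 difference of 1.56 (SE 0.159, adjusted p = 0.00127 by limma) over 2 libraries a group. It was the only called member of 8, and 7 genes in all were called (0.071%), Thy1, the sort marker, among them. In that fit the spread comes from 4 residual degrees of freedom. With plasmablast KO m3 alone left out, the difference was the same 1.56 with an SE of 0.286 and not called (adjusted p = 0.648), and with all libraries it was -0.08 (SE 1.23, adjusted p = 0.972 by limma), where 0 genes were called and 85 had an unadjusted p under 0.05. Over 18 alternatives the adjusted p ran from 0.00127 to 0.992. In activated cells the difference of 0.60 (SE 0.159) was not called (adjusted p = 0.119 by limma), with 0.71% of genes called, and no other member was either. The plasmablast difference minus the activated one was 0.97 for Il10 and not called (adjusted p = 0.248 by limma; 0.0304% of genes called), so that the larger value in plasmablasts is not shown to differ from that in activated cells.

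Between stages, Il10 was higher in plasmablasts by 1.54 in KO (SE 0.159, adjusted p = 1.41e-05) and 0.58 in WT (SE 0.159, adjusted p = 0.00985 by limma) without the m3 libraries. It was 1 of 1197 genes called higher in KO (12.1% of all tested) and 1 of 1533 in WT (15.5%). With plasmablast KO m3 in and all other libraries too, the KO difference was -0.07 (adjusted p = 0.973), and leaving out that library alone gave 1.57 (adjusted p = 0.00115 by limma). In WT, leaving it out alone gave 0.24, not called (adjusted p = 0.507 by limma). The activated library labelled WT m3 had the highest Il10 of the activated libraries. These stage differences share their plasmablast and activated libraries with the KO and WT differences above.

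**Figure D4:**
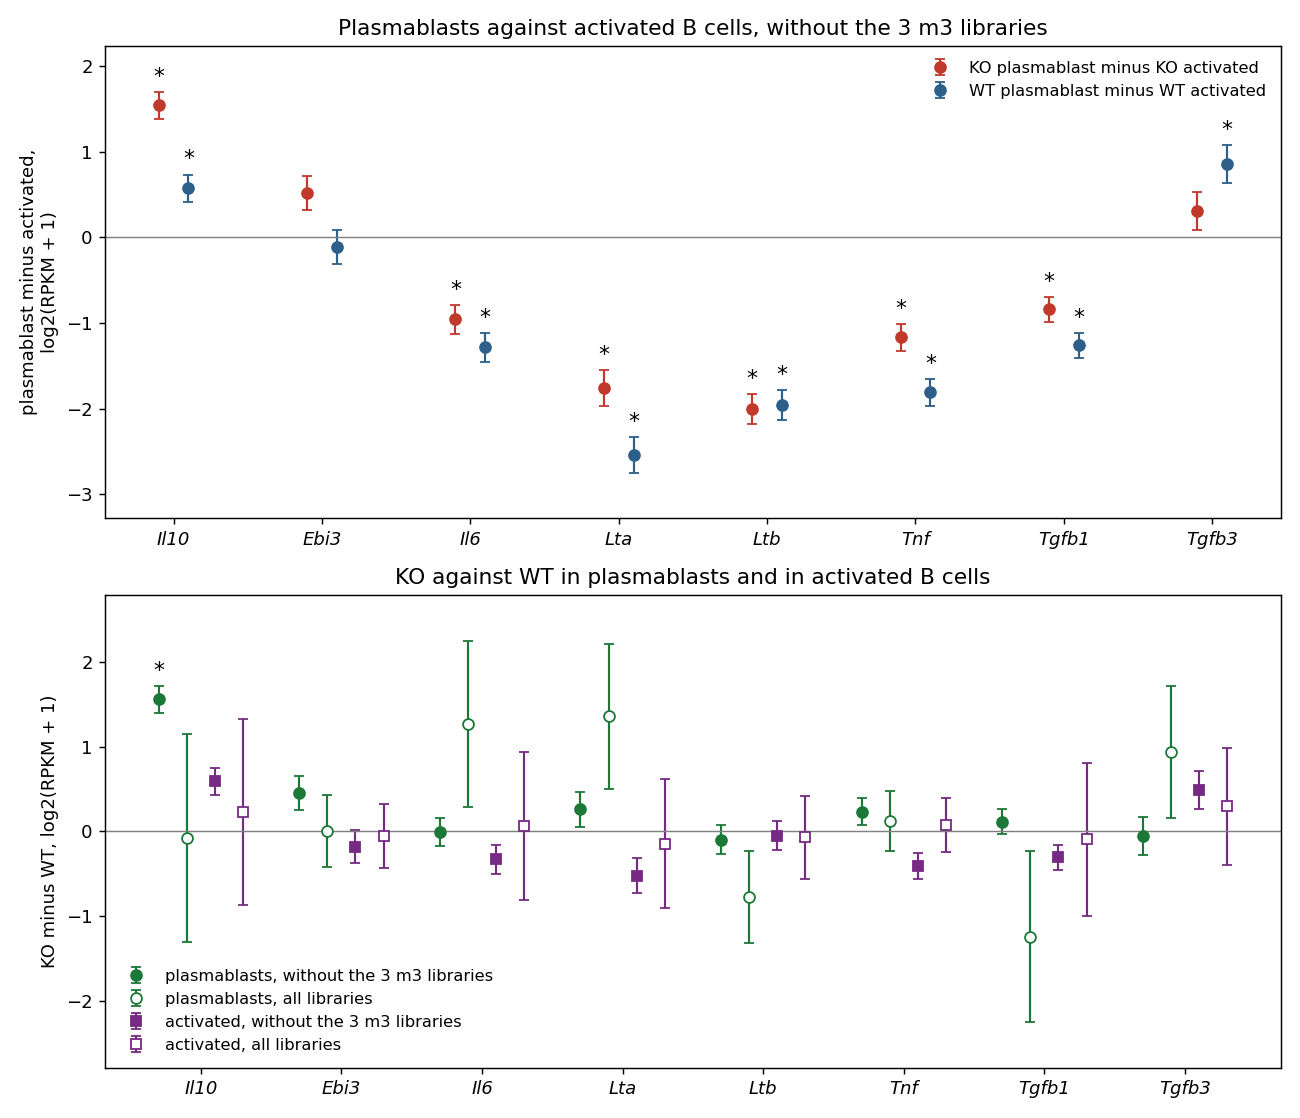
Top, plasmablast minus activated difference in log2(RPKM + 1) of each member in KO (red) and WT (blue) without the 3 m3 libraries; bottom, KO minus WT in plasmablasts (green) and activated cells (purple), without the m3 libraries (filled) and with all libraries (open). Bars are limma standard errors and stars an adjusted p under 0.05 over all genes; Il10 in plasmablasts is the sole star of the bottom panel (1.56), and it is at -0.08 with all libraries.

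No other member was called between KO and WT in cultured cells, with or without the m3 libraries. Without them the activated differences were below 0 for 6 of 8 members, from -0.52 for Lta to -0.05 for Ltb, and above 0 for Il10 and Tgfb3 (0.49), and the smallest adjusted p was that of Il10. The naive difference of Ebi3 had no called counterpart, with -0.18 in activated cells (SE 0.199, adjusted p = 0.811) and 0.45 in plasmablasts (SE 0.199, adjusted p = 0.818 by limma). That of Tgfb3 was 0.49 in activated cells (SE 0.222, adjusted p = 0.407) and -0.06 in plasmablasts (SE 0.222, adjusted p = 0.999 by limma). Whether naive and cultured differences are unlike was not tested, since each table was fitted on its own.

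Across the 10 cultured libraries other than plasmablast KO m3, Il6, Lta, Ltb, Tgfb1 and Tnf moved together, with Pearson r of 0.88 to 0.98 between any pair of their log2 values. Il10 ran against each of them (r of -0.61 to -0.70). These r describe libraries that differ by stage and so carry the stage difference of each gene. In the 12 naive libraries the closest pairs were Lta with Tnf and Ltb with Tgfb1 (r of 0.73 each), and Il10 with Tgfb3 had r of -0.78. The genes most like Il10 in cultured cells were Ier2 (r of 0.945), an immediate early gene, Furin (0.931), a protease that cleaves TGF-beta precursors, and Gas2l1 (0.920). Furin was at 5.46 ± 0.751 RPKM in KO plasmablasts and 4.10 ± 0.176 in WT plasmablasts (SD, n = 2 each). For Ebi3 the most similar genes were Tmx2 in naive (0.912) and Mboat7 in cultured cells (0.946), for Lta Gfi1b in cultured cells (0.996), and for Tnf Zbtb8os in naive (0.923) and Smad2 in cultured cells (0.996).

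Many genes around the cytokines were also lower in plasmablasts than in activated cells. Without the m3 libraries, 5 of 10 receptor genes were lower in KO plasmablasts than in KO activated cells and none higher. In WT, 4 of 10 were lower and 2 higher. Beside these counts, and those of the further lists below, stand 21.5% lower and 12.1% higher of all genes in KO and 30.7% and 15.5% in WT. Il10ra, the ligand-binding chain of the IL-10 receptor, was at 1.87 ± 0.630 RPKM in KO plasmablasts, against 12.9 ± 0.262 RPKM in KO activated cells. It was at 1.09 ± 0.160 RPKM in WT plasmablasts, against 16.8 ± 2.40 RPKM in WT activated cells (SD, n = 2 each; log2 differences -2.29 in KO and -3.08 in WT, adjusted p = 1.28e-06 and 5.75e-08 by limma). It was also called with all libraries, at -2.26 in KO (adjusted p = 0.00657) and -2.77 in WT (adjusted p = 0.00435 by limma). Il27ra (-1.66 in KO and -1.83 in WT), a receptor chain for IL-27, Tgfbr2 (-1.27 and -1.41), which binds TGF-beta, and Il12rb1 (-0.83 and -1.08), shared by IL-12 and IL-23, were lower too.

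Of 9 genes of partners and processing, 4 fell in KO and 5 fell with 1 rising in WT. Il12a, which pairs with EBI3 in IL-35, was at 2.71 ± 0.0240 RPKM in KO plasmablasts, against 10.5 ± 0.364 RPKM in KO activated cells, and 2.12 ± 0.666 RPKM in WT plasmablasts, against 10.7 ± 1.37 RPKM in WT activated cells (SD, n = 2 each). Its differences were -1.64 and -1.91 (adjusted p = 1.41e-05 and 2.02e-06 by limma), beside the uncalled ones of Ebi3. Lrrc32 (GARP), which holds latent TGF-beta at the cell surface, fell by 1.68 in KO and 2.38 in WT on the log2 scale, and was called in both with all libraries as well. Rhbdf2, which brings the TNF-releasing protease ADAM17 to the surface, and Itgb1, an integrin chain, fell in both.

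Among 26 signalling genes, 16 fell and 2 rose in KO and 18 fell and 2 rose in WT. Jak1, the kinase of the IL-10 and IL-6 receptors, fell by 1.07 in KO and 1.31 in WT. Among 20 regulators of cytokine transcription, 12 fell and 4 rose in KO and 13 fell and 5 rose in WT, with Cebpb, Fos, Ahr and Irf4 higher in both. The largest falls were those of Spib (-3.86 in KO and -5.31 in WT), an ETS partner of IRF factors, Bhlhe40 (-2.73 and -3.19), a repressor of Il10 in mouse T cells, Bach2 (-1.86 and -1.95) and Batf (-1.47 and -1.89), an AP-1 factor that binds with IRF4 and IRF8. Bhlhe40 was at 0.565 ± 0.0417 RPKM in KO plasmablasts, against 9.48 ± 2.08 RPKM in KO activated cells (SD, n = 2 each). Of 12 mRNA decay factors, 2 rose and 2 fell in KO, where 12.1% of all genes rose and 21.5% fell. In WT 2 rose and 6 fell, where 15.5% of all genes rose and 30.7% fell. Zfp36, whose protein binds AU-rich elements, rose by 0.89 in KO and 1.08 in WT, to 122 ± 5.04 RPKM in KO plasmablasts, against 66.3 ± 14.9 RPKM in KO activated cells (SD, n = 2 each). Arid5a, which protects Il6 mRNA, and Zc3h12a (regnase-1), which degrades it, fell in both (-0.73 and -0.67 in KO, -1.20 and -0.91 in WT).

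Other cytokine genes were few in these cells, 16 of 42 listed in the cultured table. Of 15 tested, Vegfa, an angiogenic factor, was higher in plasmablasts (0.62 in KO, adjusted p = 0.036, and 1.11 in WT, adjusted p = 0.000812 by limma). Another 2, Tnfsf10 and Il15, were higher in WT, and 4 were lower in KO and 7 in WT. Tnfsf8 (CD30 ligand) was lower in both, with differences of -0.92 in KO and -1.10 in WT. Ccl22, a chemokine for T cells, was at 0.193 ± 0.251 RPKM in WT plasmablasts, against 15.7 ± 10.5 RPKM in WT activated cells (SD, n = 2 each; -3.66, adjusted p = 8.27e-05 by limma). Of 13 surface genes of regulatory B cells, 4 rose and 5 fell in KO and 6 rose and 5 fell in WT. Tigit, an inhibitory receptor, rose by 1.46 to 11.7 ± 2.41 RPKM in KO plasmablasts, against 3.60 ± 0.669 RPKM in KO activated cells (SD, n = 2 each), and Entpd1 (CD39) rose in both genotypes, while Fcer2a, Cd86 and Fcrl5 fell. None of these lists had a call between KO and WT of the same stage without the m3 libraries, where the partner and processing genes (9), receptors (10), signalling genes (26) and regulators (20) had median log2 differences of 0.20, -0.02, 0.16 and 0.12 in plasmablasts, against 0.04 for all genes.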

How the data were processed

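RNA of the sorted B cells was made into libraries with SMART-seq v4 and Nextera XT, per the labels' protocols. The submitters' processing notes name STAR and mm10, and the version, counting tool and annotation are not given in the sources used here. The authors deposited RPKM, and naive and cultured cells have a table each. Log2 values of RPKM with a pseudocount of 1 entered limma 3.58.1 (R 4.3.3), with a mean per group, a trend in the spread and Benjamini-Hochberg adjustment over all genes that reached 1 RPKM in 2 libraries (10137 naive, 9986 cultured). A gene was called at an adjusted p under 0.05. The pseudocount shrinks differences of genes below about 1 RPKM. The fit was tested on simulated data with independent normal noise, without the m3 libraries and with changes only in genes well above the floor. That test cannot show how the fit fares with low counts or doubted libraries. Reads per library were estimated from values that are whole multiples of a step (tolerance 0.2). All 8 members are named, and from each further list its counts and at most 4 called genes per comparison, those with the largest change, with the 3 genes most correlated with each member as candidates. The members and lists were chosen with earlier results of these data known. Alternatives were a pseudocount of 0.1, no filter, equal library medians, no trend, a replicate block and libraries left out.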

Additional observations from a re-analysis of the deposited data

How the results depend on the processing

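Counts of members called held within 1.5 times in 45 of 59 comparisons with other settings and in 70 of 103 with 1 library left out. A count that stayed at 0 was taken as held, and most comparisons had 0 calls in the main fit. These shares therefore do not show that the calls themselves are stable. Over both guides, 2 naive calls became 1 with a pseudocount of 0.1 (Ebi3), without the trend (Tgfb3) and with the replicate block (Ebi3). The 1 call of guide 1 (Tgfb3) became 0 with a pseudocount of 0.1, with the replicate block and without both A libraries. In KO plasmablasts against KO activated cells, 2 calls became 1 (Ltb) with a pseudocount of 0.1, with equal library medians and with the replicate block, 0 without both activated m3 libraries and 6 without the 3 m3 libraries. In WT, 0 became 1 (Tnf) without both activated m3 libraries and 7 without the 3 m3 libraries, and in plasmablast KO against WT 0 became 1 (Il10) without the 3 m3 libraries. Leaving out 1 library gave 0 to 3 calls over both guides, 0 to 2 for guide 1, and 0 to 6 for plasmablasts against activated cells in KO and likewise 0 to 6 in WT. With 1 library left out, the KO plasmablast and activated difference ran from -0.99 to 1.57 for Il10 and from -1.05 to 0.91 for Il6. Where 1 library of a pair is left, it is assumed to vary like the other groups. The differences that reversed did so without plasmablast KO m3: Il10 in KO plasmablasts against KO activated cells (1.57 without that library and 1.54 without the 3 m3 libraries), Il6 there (-1.05 and -0.96), and Il10 in plasmablast KO against WT (1.56). The cause was not tested for the other changes. Once group means were removed, same-letter or same-number libraries had r of -0.105 to 0.176 in naive cells and -0.243 to 0.254 in cultured cells. Of these, 1 of 6 and 1 of 15 pairs were over 0.1. The check included the m3 libraries and had few libraries a group, so it cannot exclude a pairing. What same-numbered libraries share is not given, and the main fits assumed no pairing. Depth limits Il6, Lta and Tnf in plasmablasts, at 20 reads or fewer, and all values of plasmablast KO m3. It also limits Tgfb3 in plasmablast WT m2 (14 reads) and activated WT m2 (16 reads). Counts of all genes called moved too, with 344 in KO plasmablasts against KO activated cells becoming 3318, and 176 in WT becoming 4565, without the 3 m3 libraries, 3033 in KO and 3303 in WT without plasmablast KO m3, 59 in KO without both activated m3 libraries, and 191 over both naive guides becoming 337 without both A libraries.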
